A study of Bos grunniens and Bos taurus with 11 samples.

Results

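In small RNA tables from lung tissue, 98 of 1377 listed names carried the name of a plant or algal miRNA together with a pair of match positions that fall. Names of this kind are written like gma-miR1520q_R22-8L24, in which 22 and 8 are the positions and 24 is the length of the catalogue entry. The members were all names that are not predictions and whose first position is greater than the second. The rule used the letters of the name and no measured value. The other names were 190 plant-named entries with rising positions, 43 with no positions and 1046 predictions made from the reads. The sources used here do not define the suffix. In all 98 names the first position was no greater than the entry length and the second was at least 1. The difference of the positions plus 1 was therefore read as the span of the match.

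The libraries came from lungs of healthy adult males. The 2 CON animals were Zaosheng cattle, kept at 1500 m. The yaks came from 3 altitudes with 3 animals each, namely T1 at 3400 m, T2 at 4200 m and T3 at 5000 m. The study took the T2 animals from 3 different counties and those of each other group from 1. Species and altitude differ together between cattle and yak and cannot be told apart. The tissue label is lung, while the extraction text of the labels speaks of retinas. The tables pair no name with a lung marker, so the tissue was not checked.

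MicroRNAs (miRNAs) are small RNAs that guide a protein complex to messenger RNAs by base pairing. Plant miRNAs are catalogued in miRBase under a species prefix, such as gma for soybean, ppt for a moss, mes for cassava, pab for Norway spruce and bdi for the grass Brachypodium. Families such as miR156, miR159, miR396 and miR397 are shared by many plants, whereas numerous others are listed for 1 species. Mammals carry no genes of these plant families, and the origin of the reads under plant names was not tested here.

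Values are given in RPM, the reads of a name per 1000000 reads of all listed names in that library, and whole reads were recovered from them. The 11 libraries held 1536041 to 5388032 assigned reads, so a single read was worth 0.651 RPM in T1 1 and 0.186 RPM in T2 1. The libraries CON 1 and T2 2 stood apart, with 14.8 and 25.2 RPM under plant names with rising or no positions, against 449 RPM in T2 1 and at least 1346 RPM in each of the other 8 libraries. They belong to different groups, and values without them stand beside the group means and differences that they move. In the study's supplement, the libraries with these group numbers had the lowest raw base quality of the small RNA libraries. This match rests on the order of the library numbers. Those libraries also have the fewest known miRNAs in the supplement, and here CON 1 and T2 2 held the fewest plant names, 28 and 19. The part of read quality was not tested.

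The 98 names carried 34 species prefixes. The prefix bdi was the most frequent with 12 names, followed by rice (osa) with 9, moss (ppt) with 8 and soybean (gma) with 5. By family number, 17 names (17.3%) belonged to a list of conserved plant families, against 64 of the names with rising positions (33.7%) and 39 of those with none (90.7%). No entry occurred under 2 of the 98 names, and 0 of the 98 entries also had a name with rising or no positions. The entries were mostly 21 bases long (59 names) or 24 bases long (17 names).

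The matches were short. A span of 15 bases, the shortest in the tables, was found in 73 of the 98 names (74.5%), against 90 of 190 names with rising positions (47.4%). Spans of 18 or more bases were found in 9 names (9.18%), against 62 with rising positions (32.6%). The median match covered 71.4% of the entry, with a range of 62.5% to 100%, and 2 names covered the whole entry. These shares describe the lists, and their difference was not tested. All 6 members with a substitution in the name belonged to the 9 long matches.

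**Figure D1:**
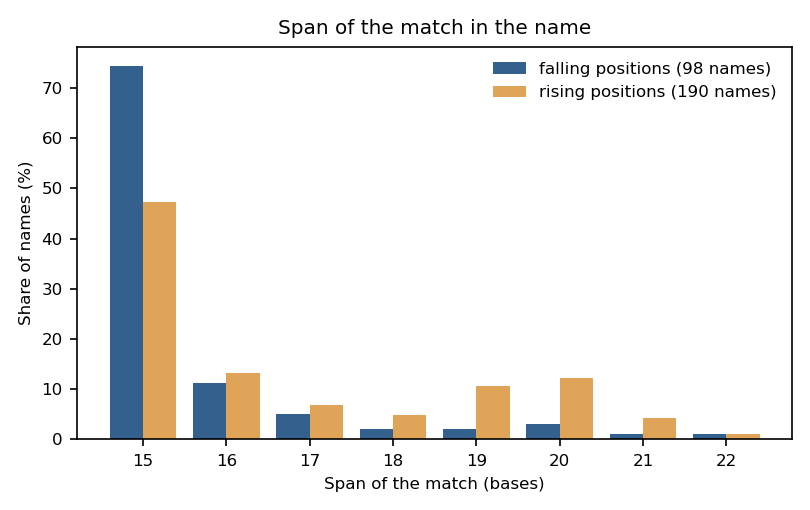
Share of names (%, vertical axis) by the span of the match in bases (horizontal axis), for the 98 names with falling positions and the 190 names with rising positions. The bar at 15 bases is at 74.5% for falling and 47.4% for rising positions.

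Most members were rare. Of the 98 names, 10 were listed at 0 in every library, 77 had 1 to 9 reads in all, 7 had 10 to 99 reads and 4 had at least 100 reads. Reads in a single library were found for 63 of the 88 members with reads (71.6%), against 53.4% of the names with rising positions, 11.6% of those with none and 51.1% of the predictions. These 63 members had 2 to 11 reads each, with a median of 2. Only gma-miR1520q_R22-8L24 and ppt-miR1029_R17-3L20 had reads in all 11 libraries, and mes-miR397_R20-1L20_6A-T and pab-miR3711_R18-1L20 had reads in 9. These 4 names held 92.4% of the 6183 reads under falling positions, and the other 94 names held 471 reads. A library held 8 (T2 2) to 24 (T1 3) of the 98 names.

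Summed over all members, the level was 300 and 194 RPM in the CON libraries. It was 195, 233 and 206 RPM in T1, then 195, 530.5 and 138 RPM in T2, and 239, 221 and 181 RPM in T3. Both the highest and the lowest value were found in T2, and the ranges of the 4 groups overlapped. The group means were 247 ± 74.9 RPM in CON (SD, n = 2), 211 ± 19.99 RPM in T1 (SD, n = 3), 288 ± 212 RPM in T2 (SD, n = 3) and 214 ± 29.6 RPM in T3 (SD, n = 3). Without T2 2 the T2 mean was 166.6 ± 40.5 RPM (SD, n = 2), below the other groups, and the RLE-scaled means were 197 in T2 and 293 in T3, so the order of T2 and T3 rests on T2 2 and on the scaling. The mean of all yak was 238 ± 114 RPM (SD, n = 9), which lay within the spread of the cattle. Without CON 1 and T2 2 it was 201 ± 32.4 RPM in 8 yak libraries, against 194 RPM in CON 2. As a share of all assigned reads the members ranged from 0.0138% in T2 3, with a 95% Wilson interval of 0.0124% to 0.0153%, to 0.0530% in T2 2, with an interval of 0.0496% to 0.0568%. These intervals, and the limits given for 0 reads, cover only the counting error, as molecular identifiers were not used. In CON 1 and T2 2, members with falling positions made up 95.3% and 95.5% of the reads under plant names, against 6.16% to 30.3% in the other 9 libraries.

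**Figure D2:**
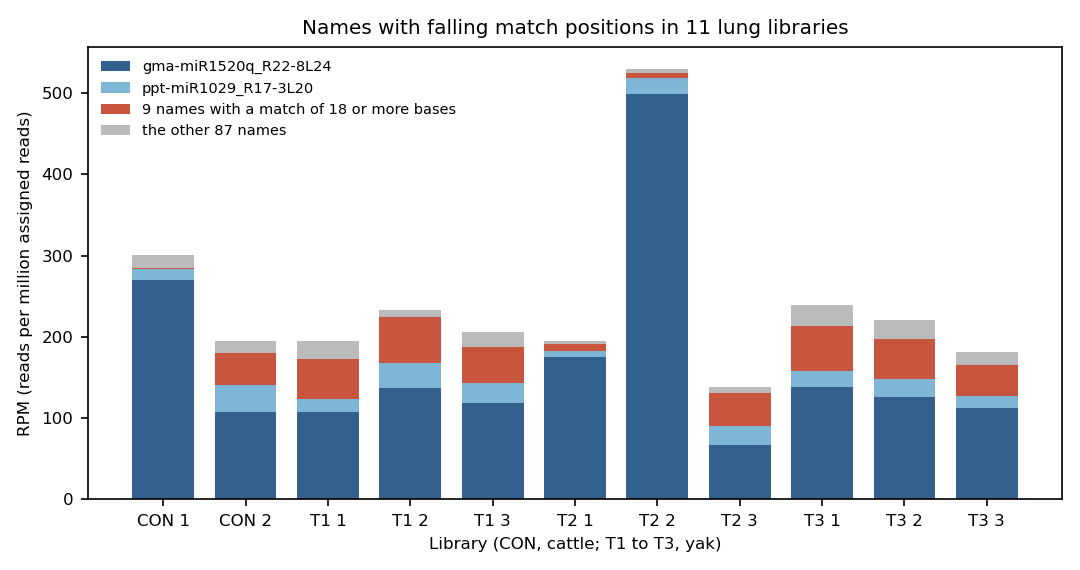
Stacked RPM (vertical axis) of the 98 names in each of the 11 libraries (horizontal axis), split into gma-miR1520q_R22-8L24, ppt-miR1029_R17-3L20, the 9 names with a match of 18 or more bases and the other 87 names. T2 2 reaches 530.5 RPM, and the 9 long matches come to 0.824 RPM in CON 1, 5.66 RPM in T2 2 and 8.17 RPM in T2 1.

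The name gma-miR1520q_R22-8L24, a soybean entry matched over 15 of 24 bases, held 4418 of the 6183 reads, or 71.5%. It was the single listed name of the miR1520 family. Its level was 270 and 107 RPM in CON, from 656 and 314 reads. In T1 it was at 107, 137 and 119 RPM, and in T3 at 138, 126 and 113 RPM. In T2 it was at 176, 499 and 66.9 RPM. The 6 T1 and T3 libraries thus lay close together, while T2 2 was 7.46 times and T2 1 2.62 times as high as T2 3, and CON 1 was 2.52 times as high as CON 2. The cattle mean was 189 ± 115 RPM (SD, n = 2). The yak mean was 164.5 ± 129 RPM (SD, n = 9), or 123 ± 31.0 RPM over the 8 libraries other than T2 2.

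With limma on log2(RPM + 1), gma-miR1520q_R22-8L24 differed by -0.29 ± 0.79 (SE) between yak and cattle, with a 95% interval of -1.97 to 1.40 and a limma adjusted p of 0.864. The sign turned when the libraries were scaled by RLE (0.04) or TMM (0.11), and without CON 1 (0.38). T3 minus T2 was -0.53 ± 0.83, with an interval of -2.28 to 1.23 and a limma adjusted p of 0.714, and 0.21 without T2 2. Differences up to the ends of these intervals remain possible with this number of libraries.

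The share of gma-miR1520q_R22-8L24 among the members' reads was 90.0% in CON 1 (95% Wilson interval 87.6% to 92.0%) and 55.2% in CON 2 (95% Wilson interval 51.1% to 59.2%). In T1 it was 54.8%, 58.6% and 57.7%, and in T3 57.8%, 57.1% and 62.3%. In T2 it was 89.9%, 94.1% and 48.5%. Shares near 90% or above were thus found in CON 1, T2 1 and T2 2, the 3 libraries with least RPM under plant names with rising or no positions, and the other 8 lay between 48.5% and 62.3%. The mean share was 57.0 ± 1.94% in T1 and 59.1 ± 2.82% in T3 (SD, n = 3 each), against 77.5 ± 25.2% in T2 (SD, n = 3) and 72.6 ± 24.6% in CON (SD, n = 2). Without T2 2 the T2 mean was 69.2 ± 29.3% (SD, n = 2), and without CON 1 the single value of CON was 55.2%.

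Among names outside the members, the 5 whose order of libraries was most like that of gma-miR1520q_R22-8L24 were predictions, with Spearman's rho of 0.78 to 0.88 over the 11 libraries. The closest of the 5 was at 897 and 237 RPM in CON, at 904, 1344 and 307 RPM in T2 and at 312 to 656 RPM in the 6 T1 and T3 libraries. Its rho was 0.88 and its Pearson r 0.86, and rho was 0.80 without CON 1 and T2 2. These values are a description over libraries that share their scaling to a fixed total. The median rho with gma-miR1520q_R22-8L24 was 0.36 over 255 predictions and -0.46 over 37 names with rising positions.

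Without gma-miR1520q_R22-8L24, the other 97 names came to 30.1 and 87.1 RPM in CON. In T1 the sum was 87.9, 96.8 and 87.03 RPM, in T2 19.7, 31.5 and 71.0 RPM, and in T3 100.9, 94.6 and 68.2 RPM. All 3 T1 libraries lay above all 3 T2 libraries, while T2 and T3 overlapped. The means were 58.6 ± 40.3 RPM in CON (SD, n = 2), 90.6 ± 5.39 RPM in T1 (SD, n = 3), 40.7 ± 26.9 RPM in T2 (SD, n = 3; 45.3 RPM without T2 2) and 87.9 ± 17.3 RPM in T3 (SD, n = 3). The ratio of yak to cattle was 1.25, and it turned to 0.899 without CON 1 and T2 2. CON 1 and T2 2 had 0.388 times the mean of the other 9 libraries for these 97 names, against 3.18 times for gma-miR1520q_R22-8L24. T2 1 was lower still, so low sums of the 97 names went with low sums of the plant names with rising or no positions in the same 3 libraries. The part of that difference between libraries in the values of T2 and CON was not tested.

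The low sums in these 3 libraries were looked at by the span of the match. The 9 names with spans of 18 or more bases had 2 reads in CON 1 (0.824 RPM), 9 reads in T2 2 (5.66 RPM) and 44 reads in T2 1 (8.17 RPM). In the other 8 libraries they lay between 38.0 and 56.2 RPM, from 75 to 136 reads. This gap was carried by mes-miR397_R20-1L20_6A-T and pab-miR3711_R18-1L20, which held 762 of the 877 reads of the long matches and 0 in CON 1 and T2 2. For the other 7 long names, CON 1 (0.824 RPM) and T2 2 (5.66 RPM) lay within the 0.651 to 10.6 RPM of the other 9 libraries. The 11 reads of CON 1 and T2 2 under these 7 names all belonged to cca-miR6109_R24-5L24_20C-T. The 72 names with a span of 15 bases, gma-miR1520q_R22-8L24 left out, showed a smaller difference. Their sums were 27.6 RPM in CON 1, 25.8 RPM in T2 2 and 10.95 RPM in T2 1. The other 8 libraries lay between 27.4 and 46.8 RPM. CON 1 was thus just inside that range, and T2 2 and T2 1 were below it. The 16 names with spans of 16 or 17 bases had only 48 reads in all.

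Among the long matches, mes-miR397_R20-1L20_6A-T had the most reads. The family miR397 is known in plants for the control of laccases, enzymes of the cell wall. The name was at 0 and 23.2 RPM in CON, at 39.7, 43.2 and 28.1 RPM in T1, at 5.197, 0 and 32.0 RPM in T2, and at 46.4, 37.8 and 29.8 RPM in T3. The 0 reads in CON 1 and T2 2 allow up to 1.24 and 1.89 RPM, the level of 3 reads. The 6 T1 and T3 libraries all lay above CON 2, and T2 3 did too. Between yak and cattle the name differed by 2.05 ± 1.24 (SE) on log2(RPM + 1), with a 95% interval of -0.58 to 4.68 and a limma adjusted p of 0.668, and it fell to -0.25 without CON 1. T3 minus T2 was 2.71 ± 1.29, with a limma adjusted p of 0.289. It moved to 1.43 without T2 2 and to 3.95 without T2 3. The other 2 members of miR397, mdm-miR397b_R21-1L21_8A-T and bdi-miR397b-5p_R21-2L21_8A-T, had 8 and 6 reads. The 3 listed names of miR397 with rising positions had 53 reads in all and also 0 in CON 1 and T2 2.

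The spruce entry pab-miR3711_R18-1L20 followed the same libraries at a lower level. It was at 0 and 6.49 RPM in CON, at 8.46, 5.35 and 6.72 RPM in T1, at 2.04, 0 and 6.57 RPM in T2, and at 7.45, 8.11 and 4.09 RPM in T3. Apart from the 0 values and T2 1, the libraries of all groups overlapped. Yak minus cattle was 0.99 ± 0.93 (SE; limma adjusted p of 0.671), and -0.46 without CON 1. The artichoke entry cca-miR6109_R24-5L24_20C-T was spread otherwise, at 0.824 and 9.56 RPM in CON and at 0 to 5.66 RPM in yak, with a median of 1.08 RPM and 0 reads in T1 1, T2 3 and T3 1. Yak minus cattle came to -0.93 ± 0.91 (SE) for this name (limma adjusted p of 0.689). It turned to 0.34 without CON 2 and moved to -2.20 without CON 1.

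The moss entry ppt-miR1029_R17-3L20, matched over 15 of 20 bases, had reads everywhere and varied less than the others. It was at 13.6 and 32.8 RPM in CON, at 16.9, 31.3 and 24.9 RPM in T1, at 7.24, 20.1 and 23.4 RPM in T2, and at 19.5, 21.6 and 14.7 RPM in T3. CON 1 and T2 2 were not the lowest libraries as a pair, since T2 1 lay below both. Cattle averaged 23.2 ± 13.6 RPM (SD, n = 2) and yaks 19.97 ± 6.77 RPM (SD, n = 9), a difference of -0.17 ± 0.81 (SE) on log2(RPM + 1), with a 95% interval of -1.90 to 1.57 and a limma adjusted p of 0.925. This sign turned with RLE (0.14) and TMM scaling (0.19).

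**Figure D3:**
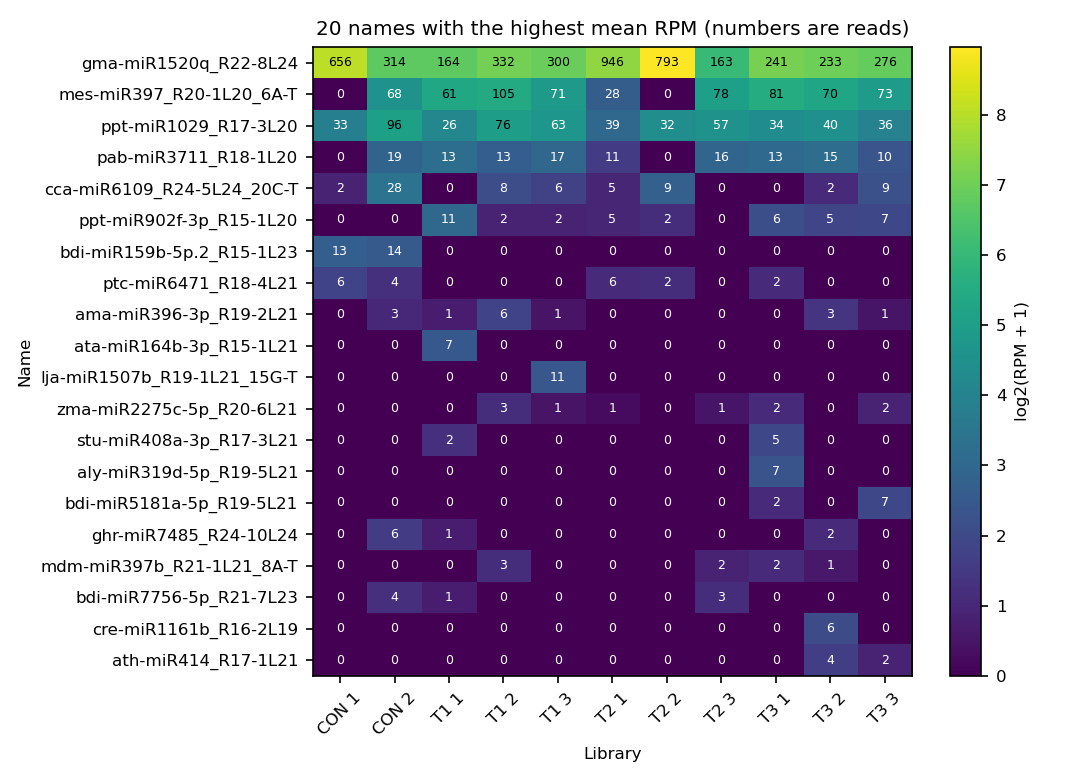
Reads (numbers) and log2(RPM + 1) (colour) of the 20 members with the highest mean RPM (rows) in the 11 libraries (columns). The names mes-miR397_R20-1L20_6A-T and pab-miR3711_R18-1L20 have 0 reads in CON 1 and T2 2, and bdi-miR159b-5p.2_R15-1L23 has reads in CON alone.

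Some members were found in 1 species. Of the 88 members with reads, 10 had them in cattle only, 66 in yak only and 12 in both, a count that compares 2 libraries with 9. The share found in yak only was 75.0%, against 56.7% of 178 names with rising positions, 37.2% of 43 names with none and 56.3% of 982 predictions. Names found in 1 library, which were more frequent among the members, are necessarily found in 1 species, and the difference of these shares was not tested. With reads in both CON libraries and 0 in yak there was a single member, bdi-miR159b-5p.2_R15-1L23, at 13 and 14 reads, or 5.35 and 4.78 RPM. Of the names outside the members, 3 predictions and 0 other plant names had this pattern. The family miR159 is known in plants for the control of MYB transcription factors. All 9 yak libraries were at 0 reads, out of 21947274 assigned reads in all. In cattle it averaged 5.07 ± 0.405 RPM (SD, n = 2), at least 3.61-fold higher than yak when each yak library is set to its level of 3 reads. The match spans 15 of 23 bases. The 8 other listed names of miR159 had 2852 reads, 0 of them in CON 1 and 1 in T2 2, so bdi-miR159b-5p.2_R15-1L23 did not follow its family in CON 1.

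The mean of bdi-miR159b-5p.2_R15-1L23 over the 11 libraries was 0.921 RPM, under the filter of 1 RPM, so it had no value in the fit of the filtered names. In the fit without a filter, on 1291 names, it differed by -2.60 between yak and cattle, with a limma adjusted p of 0.0032, where 0.542% of all names were called. It was also called in T1, T2 and T3 minus CON, where 0.465%, 0.31% and 0.697% of all names were called. It was picked for its pattern, so this value is a description. With the same names and no filter, the edgeR adjusted p was 0.134 and the DESeq2 adjusted p was 0.895.

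The opposite pattern was weaker. The moss entry ppt-miR902f-3p_R15-1L20, a name that the study placed in its networks, had 0 reads in both CON libraries and 2 to 11 reads in 8 of the 9 yak libraries, with 0 in T2 3. It was at 7.16, 0.823 and 0.791 RPM in T1, at 0.928, 1.26 and 0 RPM in T2, and at 3.44, 2.70 and 2.86 RPM in T3. Only T1 1 and the 3 T3 libraries lay above 2 RPM. In yak it averaged 2.22 ± 2.18 RPM (SD, n = 9), at least 1.96-fold higher than cattle with both cattle libraries set to 3 reads. The limma adjusted p was 0.668 for yak minus cattle and 0.293 for T3 minus CON, where the unadjusted p was 0.0248. The name passed the filter through yak alone, so the direction of both differences was set in advance and is no support. The other network member, ptc-miR6471_R18-4L21, had 6 and 4 reads in CON, 6 in T2 1, 2 each in T2 2 and T3 1 and 0 in the other 6 yak libraries. The study describes all miRNAs of its yak and cattle network, both of these names included, as upregulated. That description does not state which side was higher, and the network was drawn from RNAs shared by the separate comparisons of CON with T1, T2 and T3. Here ptc-miR6471_R18-4L21 averaged 1.92 RPM in CON and 0.391 RPM over all yak, from 20 reads in all. It did not pass the filter. The member zma-miR2275c-5p_R20-6L21 had 1 to 3 reads in 6 yak libraries and 0 in CON.

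The remaining names among the 20 with the highest means had 6 to 15 reads. They were ama-miR396-3p_R19-2L21, with 15 reads over 6 libraries, and ata-miR164b-3p_R15-1L21, lja-miR1507b_R19-1L21_15G-T, aly-miR319d-5p_R19-5L21 and cre-miR1161b_R16-2L19, each with reads in 1 library. Reads in 2 or 3 libraries were found for stu-miR408a-3p_R17-3L21, bdi-miR5181a-5p_R19-5L21, ghr-miR7485_R24-10L24, bdi-miR7756-5p_R21-7L23 and ath-miR414_R17-1L21. At this depth no order of groups can be read from them.

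The members were compared over the 6 pairs of groups and, in addition, between all yak and CON and along altitude within yak. For this, 310 names had a mean of at least 1 RPM and were tested, and 6 of them were members. The other 92 members had no test. A member that passed this filter through 1 group alone had to differ between groups. ppt-miR902f-3p_R15-1L20 had 0 reads in CON and passed through yak alone. Its direction against CON was thus set in advance and is no support. At a limma adjusted p under 0.05 and a 2-fold change, 0 of the 6 were called in yak minus CON, where 0.968% of all 310 names were called. Likewise 0 of the 6 were called in T1, T2 and T3 minus CON, where 0.323% of all names were called in each, and 0 in T2 minus T1, T3 minus T1, T3 minus T2 and the linear altitude trend, where 0% were called. At an unadjusted p under 0.05 and a 2-fold change, 1 of the 6, ppt-miR902f-3p_R15-1L20, passed in T3 minus CON, where 14.5% of all names passed, and 0 in the other comparisons. There the share of all names was 5.16% in yak minus CON, 6.45% in T1 minus CON, 2.58% in T2 minus CON, 5.48% in T2 minus T1, 2.9% in T3 minus T1, 13.9% in T3 minus T2 and 1.29% in the trend, which had no limit on the fold. edgeR and DESeq2 on the recovered reads also called 0 of the 6 in each comparison. Their shares over all names are not given here, so this count is not read as a result about the members.

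In yak minus CON, 3 of the 6 were higher and 3 lower. Their median difference was 0.41, or 0.40 with ppt-miR902f-3p_R15-1L20 at its bound, against -0.15 over all 310 names. RLE scaling moved the latter to 0.10 and gave 5 higher and 1 lower. In T3 minus T2, 4 were higher and 2 lower, with a median of 0.77 against -0.49 over all names, and with RLE scaling 6 were higher, at 1.31 against 0.03. Without CON 1 and T2 2 the medians were -0.04 against -0.02 in yak minus CON, with 3 higher and 3 lower, and 0.61 against -0.09 in T3 minus T2, with 6 higher. The comparisons with CON share its 2 libraries. Along altitude, the 6 differences per 1000 m lay between -0.22 for ppt-miR1029_R17-3L20 and 0.26 for ppt-miR902f-3p_R15-1L20.

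**Figure D4:**
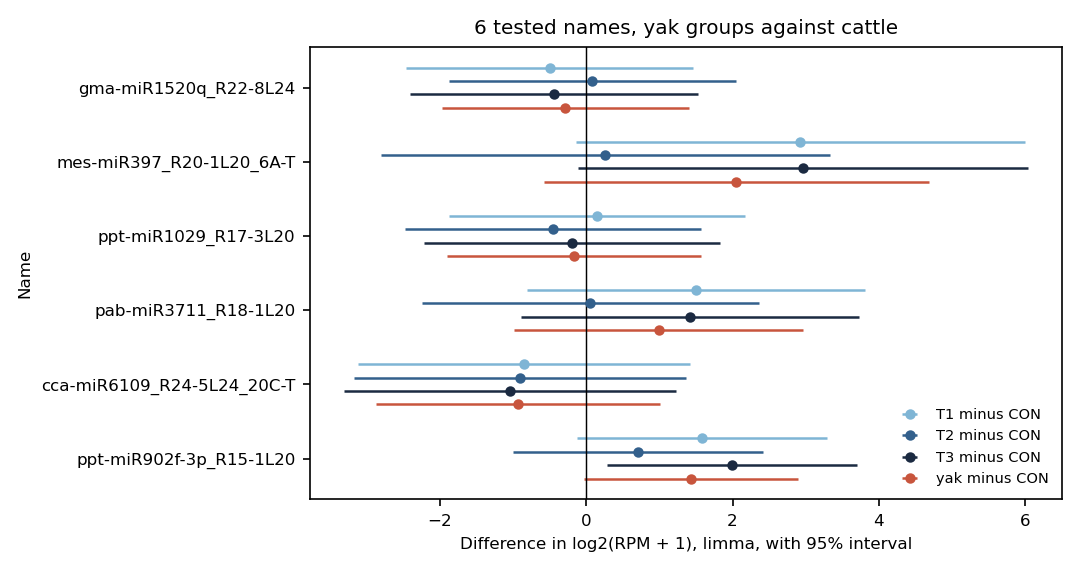
Difference in log2(RPM + 1) (horizontal axis, points with 95% limma intervals) of the 6 tested names (rows) for T1, T2, T3 and all yak minus CON. The interval of ppt-miR902f-3p_R15-1L20 in T3 minus CON, 0.29 to 3.70, is the one that does not reach 0. This name had 0 reads in CON and passed the filter through yak alone, so its direction was set in advance.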

How the data were processed

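Lung small RNA of 2 cattle and 9 yaks was measured. According to the methods, reads were trimmed and filtered against Rfam by the authors, known miRNAs were named from miRBase, and others were predicted with Bowtie2 and MIREAP (yak assembly BosGru_v2.0). Versions are not given in the sources used here. The authors deposited RPM values that sum to 1000000 per library. Whole reads were recovered by division by the smallest value above 0, and 100% of 4651 values came out whole within 0.01 reads. No pair of replicates held like counts (lowest chi-square 56.7 per degree of freedom), so all 11 libraries were kept as separate samples. The labels name the animals by 1 library each.

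Groups follow the altitude label. p-values measure the spread between these libraries. limma 3.58.1 in R 4.3.3 was fitted on log2(RPM + 1) with a variance trend, over the 310 names that averaged 1 RPM or more, with 1 mean per group. This scale understates changes of names with few reads. Calls needed a Benjamini-Hochberg adjusted p under 0.05 over all names and a 2-fold change (no fold limit for the trend over the 9 yak libraries). A level of 3 reads was the upper limit set for a library at 0 reads. Names were counted as found with any read. Alternatives were edgeR 4.0.16, DESeq2 1.42.0, RLE and TMM scaling, other filters and pseudocounts, a replicate block and left-out libraries. The scripts were tested on simulated data. Sums over members got no test. The members and lists were chosen with earlier results of these data known. Named were the 20 members with the highest means, those called or found in all libraries, 2 from the study's networks and those of 1 species with most reads. Names of the same families outside the members, and the 5 names most like gma-miR1520q_R22-8L24, were described without their names.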

Additional observations from a re-analysis of the deposited data

Results flagged for a closer look

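For 10 measures the 9 yak libraries were searched for a value far from the others, by the gap to the nearest library divided by the range, against Dixon's 95% critical value for 9 values. Chance gives about 1 in 20, and 3 were found. T2 2 stood out with 530.5 RPM over all 98 names, where the other 8 yak libraries lay between 138 and 239 RPM. It also stood out with 499 RPM of gma-miR1520q_R22-8L24, where the others lay between 66.9 and 176 RPM. Both describe the same reads, since that name held 94.1% of the members' reads in T2 2. T1 1 stood out with 7.16 RPM of ppt-miR902f-3p_R15-1L20, from 11 reads in the smallest library, where the others lay between 0 and 3.44 RPM.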

How the results depend on the processing

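The number of members called against cattle depended on the filter, because bdi-miR159b-5p.2_R15-1L23 lies just under 1 RPM over all libraries. With the filter it was 0 of 6 in each comparison. There 0.968% of all names were called in yak minus CON and 0.323% in T1, T2 and T3 minus CON. With no filter it was 1 of 88 in each of these 4 comparisons. The shares of all names were then 0.542% in yak minus CON and 0.465%, 0.31% and 0.697% in T1, T2 and T3 minus CON. With 1 yak library left out it ranged from 0 to 1 of 7 in these 4 comparisons, with no share over all names given here. A mean over fewer yak libraries passes the filter. In yak minus CON it was 1 without any one of the 9 yak libraries. The name passed the filter there through CON alone, with 0 reads in yak, so this call was set in advance and is no support. Without either CON library the name lay under the filter and was not tested. The number called was also 1 in T3 minus CON at an unadjusted p, there for ppt-miR902f-3p_R15-1L20, where 14.5% of all names passed. That name was at 0 reads in CON, so its direction was set in advance too. Fits with no filter were an alternative added after the data were seen. With 1 yak library left out, the limma adjusted p of bdi-miR159b-5p.2_R15-1L23 lay between 0.0042 and 0.0193. The name was picked for its pattern and was at 0 in every yak library. These fits therefore had to repeat the difference and are no support. With 1 CON library left out the difference was -2.53 or -2.67. The difference was called with a pseudocount of 0.1. It was not called with a pseudocount of 10, at a difference of -0.59, with edgeR or with DESeq2.

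For the 6 tested members, 17 of 186 alternatives turned the sign, none with a call. For gma-miR1520q_R22-8L24 in yak minus CON the values were 0.038 with RLE, 0.11 with TMM, 0.10 with DESeq2, 0.13 without CON 1 and T2 2, and from -0.95 to 0.38 with 1 library left out. In T3 minus T2 they were 0.18, 0.036, 0.11 and 0.21, and from -1.24 to 0.21 with 1 library left out, the highest without T2 2. In yak minus CON, ppt-miR1029_R17-3L20 was at 0.14 with RLE, 0.19 with TMM. With 1 library left out it ran from -0.77 to 0.44 (without CON 2) and cca-miR6109_R24-5L24_20C-T from -2.20 to 0.34 (without CON 2). Likewise mes-miR397_R20-1L20_6A-T ran from -0.25 (without CON 1) to 4.35 and pab-miR3711_R18-1L20 from -0.46 (without CON 1) to 2.44, the latter at -0.21 without CON 1 and T2 2. The cause was not tested.

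The summed RPM moved by more than its spread in T1 with RLE (241) and TMM (246) and in T3 with RLE (293) and TMM (265). Without gma-miR1520q_R22-8L24 it moved in T1 to 104, 106 and, over members with at least 10 reads, 76.2, and in T3 to 122, 109 and 69.5. The replicate numbers were not taken as pairs, since the deviations of same-numbered libraries correlated at -0.82 to 0.61. The fit with a replicate block called 0 members in each comparison, with no share over all names given here. It gave -0.021 for gma-miR1520q_R22-8L24 in yak minus CON. Where 10 reads were required in each library, gma-miR1520q_R22-8L24 and ppt-miR1029_R17-3L20 alone were tested. Depth leaves 77 members with 1 to 9 reads, for which no difference was detectable.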
